A study of Homo sapiens with 2 samples.

Results

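Metallothioneins are short, cysteine-rich proteins that bind zinc, copper and cadmium, and their genes were examined here with MTF1, the zinc-sensing transcription factor that activates them. MTF1 binds metal response elements in metallothionein promoters when free zinc rises, and glucocorticoids, oxidative stress and other signals can also raise these genes. In the brain MT1 and MT2 proteins are best known from astrocytes, whereas MT3 is the form associated with neurons.

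The members were 8 genes, the metallothionein genes MT1E, MT1F, MT1G, MT1H, MT1M, MT1X and MT2A and the regulator gene MTF1. Their probe sets were those with only that gene's symbol in the platform annotation, which gave 14 of 54675 probe sets, 11 for metallothioneins and 3 for MTF1. No probe set (0) carried the symbols of several metallothioneins. The family was chosen by its log2 differences between these same arrays, so those values are a description and carry no test.

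Total RNA came from 2 samples labelled as U87, an established human glioblastoma line, collected 48 hours after transient transfection with a lipid reagent. The control was given a non-target siRNA. The second sample was given siRNA directed at FOXM1, a forkhead factor active in cell division, and each sample was hybridised to 1 array. By their labels both groups share the line, the serum-containing medium and the transfection, and differ in the siRNA. A single array for each siRNA gives neither an SD over samples nor a p-value, and the number of arrays limits the precision. Values are MAS5 signals, linear intensities scaled per array. A signal counted as above background when it exceeded the floor of its array, 60.8 for the non-target and 77.7 for the FOXM1 siRNA, the 90th percentile of 135 olfactory receptor probe sets. The pooled SD of log2 differences among probe sets of the same gene was 0.50, taken over the 5476 genes in which 2 or more probe sets passed both floors. It is the only error available, and it comes from within these arrays.

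The labels were checked first. FOXM1 was read in its brightest probe set, whose ID ends in _x_at, a class whose probes can match several transcripts. It read 1520 on the control-labelled array and 1343 on the FOXM1-labelled array. The log2 difference of -0.18 is smaller than the SD of 0.50, so no lower level of the siRNA's target was resolved. The arrays are therefore called control-labelled and FOXM1-labelled, and a direction given here holds only as far as those labels do. CDKN2A, of a locus known to be deleted in U87, read 3467 and 421. Of the same locus, CDKN2B read 350 and 31.8 and MTAP 619 and 76.3, both below the floor on the FOXM1-labelled array alone. An siRNA effect and a difference in cell identity therefore cannot be told apart. Of 11 glial and glioma markers, 9 lay above a floor, 2 at least 2-fold higher on the FOXM1-labelled array, CHI3L1 among them at 9.68-fold, and 1 lower, SOX2 at 8.75-fold or more. The astroglial markers GFAP and AQP4 lay below both floors. Of 5 epithelial markers, 4 lay above a floor and 1 was lower past 2-fold, KRT18 at 6.99-fold. None (0) of 4 measured leukocyte markers lay above a floor on either array, among them PTPRC and CD14. Of 4 endothelial markers, 2 lay above a floor. PECAM1 read 62.8 and 113, 1.80-fold higher on the FOXM1-labelled array. VWF read 9.86 and 119, above the floor on that array alone and at least 1.96-fold higher. The 6 fibroblast and mesenchymal markers had a summed signal of 1864 on the control-labelled array and 21368 on the FOXM1-labelled array, and 5 of the 6 were at least 2-fold higher there. The exception, COL3A1, read 61.0 and 59.6. PDGFRB and DCN were above a floor on the FOXM1-labelled array alone, and the 4 probe sets of COL1A1 above both floors ran from -0.06 to 3.35 in log2 difference. Over all 13865 genes above a floor, 16.0% were at least 2-fold higher and 15.4% lower. The 3' to 5' signal ratio of ACTB, a measure of RNA quality, was 6.79 and 4.21. These moved with the metallothionein values below, and their part in them was not tested.

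Every metallothionein probe set above a floor read higher on the FOXM1-labelled array. In bulk RNA, more cells with a transcript and more transcript per cell cannot be told apart. Of the 11 probe sets, 9 lay above both floors, 1 above the floor of the FOXM1-labelled array only and 1 above neither. All of the 9 were at least 4-fold higher, from 4.24-fold to 11.0-fold, with a median log2 difference of 3.05 (8.26-fold). Of the 14 member probe sets, 10 were at least 2-fold higher and none (0) was lower by that factor, where 15.4% and 13.6% of 26582 named probe sets above a floor were so. With 1 probe set per gene, the one with the highest mean log2 signal, all 7 metallothionein genes were at least 4-fold higher, against 6.12% of 13865 genes. Of these, MT1M is a bound, and MT1G has a second probe set below both floors. The 7 are not independent measurements, since most of their probe sets can match several transcripts. The median log2 difference of the 7 was 3.05, beside -0.02 over all 13449 genes with a measured or bounded difference. Scaling on the hybridisation controls shifted the median of all genes to -0.30 and that of the metallothioneins to 2.74.

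**Figure D1:**
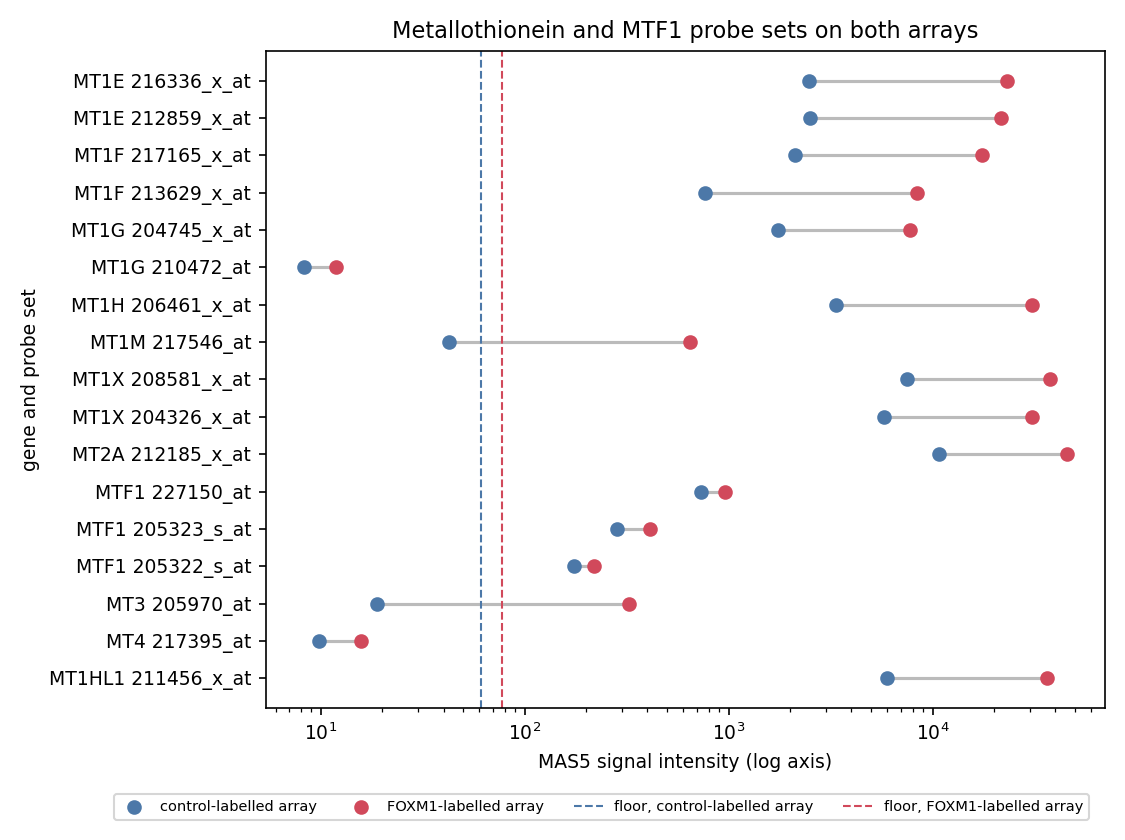
MAS5 signal intensity (log axis) of each member probe set, and of MT3, MT4 and MT1HL1, on the control-labelled array (blue) and the FOXM1-labelled array (red), with each array's floor as a dashed line. The metallothionein points lie far apart, for MT2A at 10707 and 45414, and the MTF1 points lie close together, for its brightest probe set at 729 and 954.

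MT2A, usually the most widely expressed human metallothionein gene, read 10707 on the control-labelled array and 45414 on the FOXM1-labelled array. The difference was 4.24-fold, the smallest among the metallothionein probe sets above both floors. Only 24 probe sets of the FOXM1-labelled array were brighter than this one, and the highest signal on that array was 55737. Whether the upper end of the scale limited the difference was not tested.

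MT1X, a further zinc- and copper-binding isoform, was represented by 2 probe sets. The first read 7490 and 37704, 5.03-fold higher on the FOXM1-labelled array. The other read 5762 and 30846, 5.35-fold higher. They differ by 0.09 in log2 difference, well inside the SD of 0.50. The transcript that the platform lists for the second one is the MT1L pseudogene in RefSeq, so it may not report MT1X alone. MT1G was the isoform whose probe sets disagreed. One read 1743 and 7710, 4.42-fold higher, and the other read 8.26 and 11.9, below the floor of both arrays.

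Larger differences were found for MT1E, MT1H and MT1F. The probe sets of MT1E read 2485 and 2497 on the control-labelled array and 23140 and 21676 on the FOXM1-labelled array, which is 9.31-fold and 8.68-fold higher. MT1H read 3369 and 30633, a 9.09-fold difference. The brighter probe set of MT1F read 2116 and 17471, 8.26-fold higher, and the dimmer one read 764 and 8387, 11.0-fold higher. In all 3 genes the FOXM1-labelled array was the high one in every probe set. MT1M stood apart from the others because it was below the floor on the control-labelled array, at 42.4, and above it only on the FOXM1-labelled array, at 644. Against the floor it was at least 10.6-fold higher.

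Ordered by the log2 difference of the brightest probe set, MT1E (3.22) came before MT1H (3.18), MT1F (3.05), MT1X (2.33), MT1G (2.15) and MT2A (2.08), all above both floors. The gap between 2 probe sets of a gene has an SD of 0.71 on this scale. The step from MT1F to MT1X, 0.714, was just above that SD of 0.705, and the other steps, from 0.03 to 0.19, lay inside it. A step that only just passes the SD settles no split, so the order of these genes is not resolved. That SD is a spread among probe sets within these arrays and not an error between arrays. Of all 13865 genes, 2.09% had a larger difference than MT1E and 5.73% a larger one than MT2A.

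**Figure D2:**
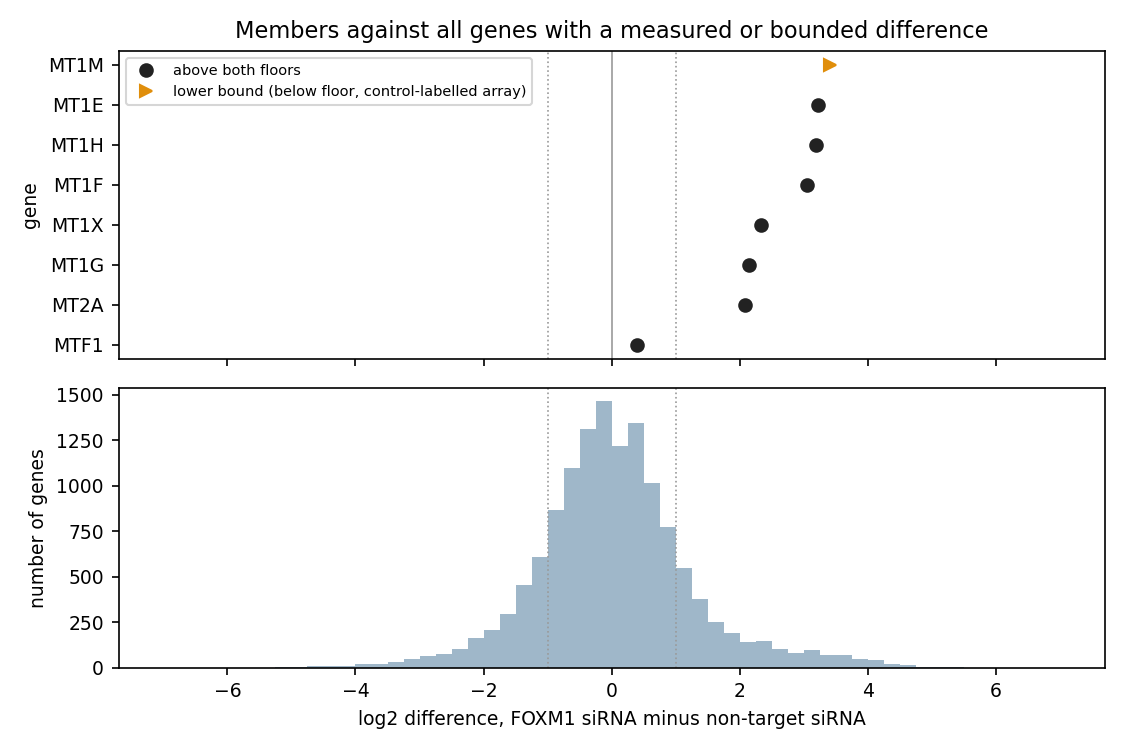
Upper panel, log2 difference (FOXM1 siRNA minus non-target siRNA) of each member gene, with the lower bound of MT1M as a triangle; lower panel, number of genes per bin of 0.25 over 13449 genes with a measured or bounded difference. Dotted lines mark 2-fold; the 7 metallothioneins lie between 2.08 and 3.40 and MTF1 at 0.39.

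Most of these probe sets can read more than a single isoform. Of the 11 metallothionein probe sets, 9 have IDs ending in _x_at, a class whose probes can match several transcripts, and metallothionein messages are close in sequence. They are not independent measurements of 7 genes, and which isoforms carried the difference cannot be told apart with them. Without that class and the _s_at class, 3 member probe sets remained: the MT1M probe set, the MT1G probe set below both floors and the brightest one of MTF1. MT1HL1, a metallothionein-like locus outside the cluster that was named after its values were seen, is read by another _x_at probe set. It gave 5994 and 36448, 6.08-fold higher on the FOXM1-labelled array.

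Of the other metallothionein loci, MT3 and MT4 were the ones with a named probe set, both of the class that is meant to match a single gene. MT3, the neuronal form also called growth inhibitory factor, read 19.0 on the control-labelled array and 325 on the FOXM1-labelled array. As the first value is below the floor, MT3 was at least 5.35-fold higher. MT4, the form of stratified squamous epithelium, read 9.75 and 15.7, below both floors. MT1M and MT3, read by probe sets outside the _x_at class, lay above a floor on the FOXM1-labelled array alone. A fold for such a probe set can only be higher, so they do not check the direction of the _x_at probe sets. The remaining metallothionein probe sets outside that class, of MT1G and MT4, lay below both floors.

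MTF1 differed little. Its brightest probe set read 729 on the control-labelled array and 954 on the FOXM1-labelled array, a log2 difference of 0.39. A second read 282 and 412, at 0.55, and the third read 175 and 219, at 0.33. All 3 lay on the higher side and under 2-fold, and the second alone exceeded the SD of 0.50. With the hybridisation controls set equal, the 3 values were 0.09, 0.25 and 0.03. Of 13865 genes, 33.3% had a larger difference than MTF1.

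MT2A, MT1H and MT1X were the metallothionein members with a RefSeq promoter window. Their promoter sequences are shown because the metal response element, the site to which MTF1 binds, is what ties the regulator to these genes. They are the 250 bases before the RefSeq transcript start in GRCh38.p14, all on the plus strand of chromosome 16, written 5' to 3' with capitals for each match to the element's core. MT2A lies at chr16:56608334-56608583, MT1H at chr16:56669564-56669813 and MT1X at chr16:56682220-56682469.
MT2A: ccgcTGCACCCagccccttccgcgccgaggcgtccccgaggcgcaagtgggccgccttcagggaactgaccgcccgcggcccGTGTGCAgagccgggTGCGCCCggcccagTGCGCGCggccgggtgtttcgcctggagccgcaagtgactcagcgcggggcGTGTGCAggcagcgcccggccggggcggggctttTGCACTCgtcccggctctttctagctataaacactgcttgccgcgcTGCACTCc
MT1H: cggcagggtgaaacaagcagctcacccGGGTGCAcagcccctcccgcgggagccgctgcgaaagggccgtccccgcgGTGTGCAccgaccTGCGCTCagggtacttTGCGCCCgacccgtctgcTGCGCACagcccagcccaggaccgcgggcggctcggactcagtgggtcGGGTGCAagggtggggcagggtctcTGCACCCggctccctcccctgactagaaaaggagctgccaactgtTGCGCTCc
MT1X: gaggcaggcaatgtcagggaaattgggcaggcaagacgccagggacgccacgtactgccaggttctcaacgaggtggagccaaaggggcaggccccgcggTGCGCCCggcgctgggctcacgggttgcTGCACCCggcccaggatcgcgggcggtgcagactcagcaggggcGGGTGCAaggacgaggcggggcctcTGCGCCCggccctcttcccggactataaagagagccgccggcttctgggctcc
The core searched was TGCACNC or TGCGCNC on either strand. MT1H held 8 matches, MT2A 7 and MT1X 4, and none of them overlapped another. Of 35116 windows of that length before the starts in the same RefSeq table, 0.0171% held at least 8 matches, 0.0313% at least 7, 0.370% at least 4 and 24.8% at least 1. MT1H and MT1X share the place of a minus-strand match beginning at -78 and of a plus-strand match beginning at -53, and MT2A has the same pair of strands at -88 and -54, counted from the transcript start. MT1H was 9.09-fold higher with 8 matches, MT2A 4.24-fold with 7 and MT1X 5.03-fold with 4, all in _x_at probe sets. A relation between the number of matches and the differences was not tested. The window of MTF1 on chromosome 1 held 0 matches. MT1B and MT4, metallothionein loci outside the members, held 3 matches each, a number reached by 1.58% of windows. MT1B has a minus-strand match at -79 and a plus-strand match at -53, and MT4 read below both floors. A match is a description of the letters and not a measured binding site.

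SLC30A1 encodes the zinc exporter ZnT1 and is a further known target of MTF1. It read 3116 on the control-labelled array and 3127 on the FOXM1-labelled array, a log2 difference of 0.01. Its other probe set above the floors read 532 and 598, at 0.17, so neither moved beyond the SD of 0.50. With the hybridisation controls set equal, both turned to the lower side, at -0.30 and -0.13. Its promoter window held 1 match to the core.

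The lists below, of metal transporters and regulators, were drawn up from general knowledge with the earlier results known. Their counts are of genes above a floor, to be read beside the 16.0% of all 13865 genes past 2-fold on the higher side and 15.4% on the lower. Of the zinc exporter family SLC30, which moves zinc out of the cytosol, 7 of 10 genes were above a floor and none (0) reached 2-fold in either direction. The median log2 difference over the 6 with a value was -0.16. SLC30A5 gave -0.60, SLC30A4 -0.38 and SLC30A6 0.14. SLC30A9 gave -0.20 in its brightest probe set and 0.59 in the other. SLC30A2 was above the floor on the control-labelled array alone, at 69.1, and had no fold because the other floor is higher.

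The zinc importers of the SLC39 family, which bring zinc into the cytosol, were more mixed. Of 13 genes above a floor, 3 passed 2-fold on the higher side and none (0) on the lower, and the median log2 difference was 0.37. SLC39A14, the importer ZIP14, which also carries iron, read 4498 and 16123, 3.58-fold higher on the FOXM1-labelled array. SLC39A13 was 2.52-fold higher, and SLC39A5, at 30.4 and 194, at least 3.19-fold higher. With a floor 2 times as high SLC39A5 was at 0.67 on the log2 scale, under 2-fold. SLC39A10 gave a log2 difference of -0.94. With the hybridisation controls set equal, 3 importers were higher, 2 lower and the median was 0.06.

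Genes known to respond to metal or oxidative stress, metallothioneins left out, had a median log2 difference of 0.91, with 4 of 11 past 2-fold on the higher side and none (0) on the lower. They were NQO1, a quinone reductase, at 9.14-fold, the small heat shock gene HSPB1 at 5.35-fold, the heme oxygenase gene HMOX1 at 4.90-fold and the thioredoxin reductase gene TXNRD1 at 2.28-fold. The other 7 were under 2-fold, among them GCLC (0.30) and GCLM (0.08), subunits of the enzyme that starts glutathione synthesis. The 3 probe sets of GCLM ran from -2.22 to 0.08. With the hybridisation controls set equal TXNRD1 was at 0.89, under 2-fold, which left 3 genes past it, and its median over 2 probe sets, of which the second lay below both floors, was 0.77. The regulators other than MTF1 had a median of -0.25. Of 10, none (0) passed 2-fold on the higher side and 1 on the lower, PIAS4, a SUMO ligase, at -1.11 in one probe set and -0.39 in the other. USF1, a factor that binds E-boxes, was below the floor on the FOXM1-labelled array, with a log2 difference of at most -0.91. CTCF gave -0.79 and PML 0.61. With quantile or loess scaling 2 regulators passed 2-fold on the lower side. With the hybridisation controls set equal 3 did, where 3200 of all 13810 genes did.

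Glucocorticoid-responsive genes went both ways. The glucocorticoid receptor gene NR3C1 read 2463 and 4645, a log2 difference of 0.92, and its 5 probe sets ran from 0.59 to 1.03. Of 11 genes of the list above a floor, the receptor included, 5 passed 2-fold on the higher side and 3 on the lower, or 4 and 4 with the hybridisation controls set equal. FKBP5, a chaperone of the receptor and a direct target, read 3056 and 526, 5.81-fold lower on the FOXM1-labelled array. TSC22D3, which encodes GILZ, read 6454 and 1321, 4.89-fold lower. On the higher side, ERRFI1, an inhibitor of EGFR, was 7.72-fold higher, and DUSP1, a MAP kinase phosphatase, 4.22-fold in its brightest probe set but at -0.91 on the log2 scale in another.

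**Figure D3:**
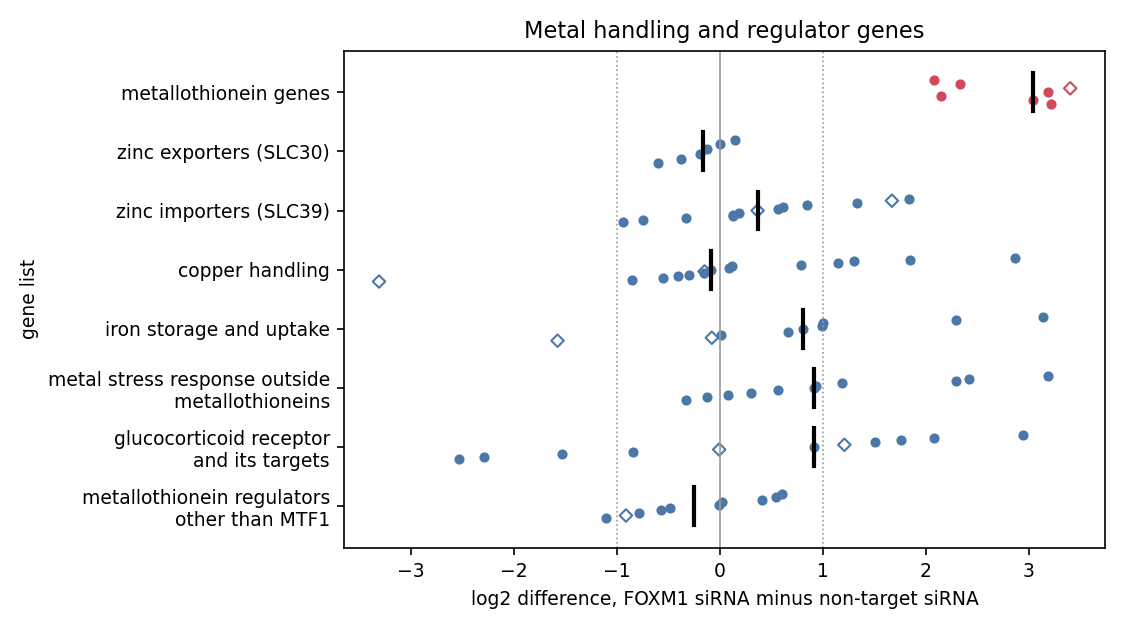
Log2 differences (FOXM1 siRNA minus non-target siRNA) of the metallothionein members and of 7 lists of metal handling, stress and regulator genes, 1 point per gene above a floor, with open diamonds for bounds, black bars for medians and dotted lines at 2-fold. The metallothioneins (red) have a median of 3.05, and the medians of the 7 lists (blue) run from -0.25 to 0.92.

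The metallothionein genes lie side by side on chromosome 16, and the genes around them were looked at after the data had been seen. The 6 nearest measured protein-coding genes on each side gave 12, of which 8 were above a floor. Of these, 1 passed 2-fold on the higher side and none (0) on the lower, beside 16.0% and 15.4% of all 13865 genes above a floor. The median of the flanking genes was 0.33 on the log2 scale. On one side BBS2, a gene of the ciliary BBSome, read 1394 and 1513, at 0.12. On the other NUP93, which encodes a nuclear pore scaffold protein, read 2798 and 1933, at -0.53. The gene past 2-fold was NLRC5, an activator of MHC class I genes, which at 47.1 and 398 was at least 6.54-fold higher.

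**Figure D4:**
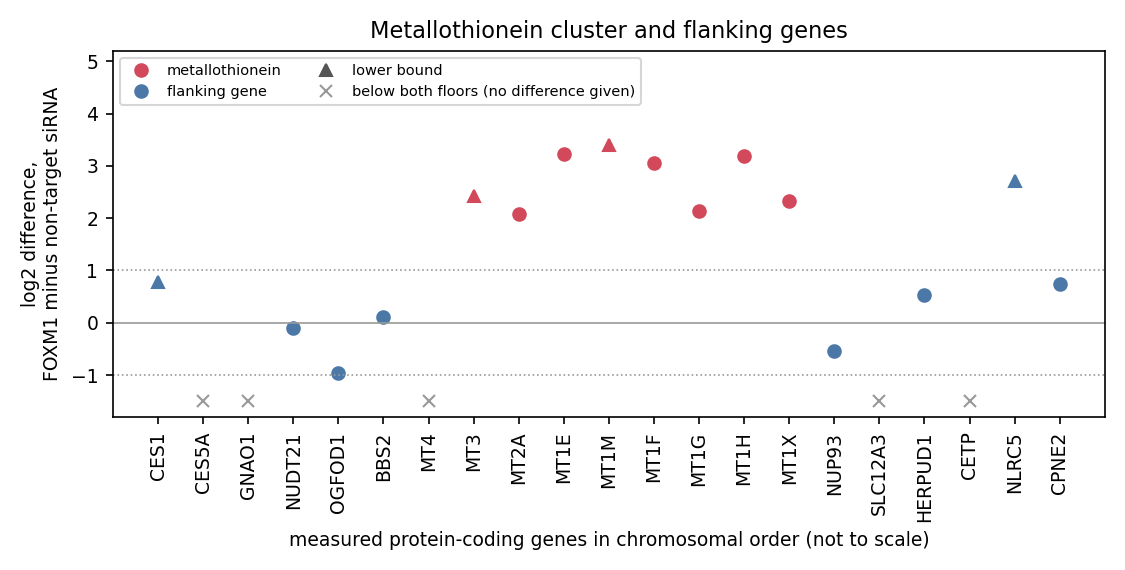
Log2 difference (FOXM1 siRNA minus non-target siRNA) of metallothionein genes (red) and of the 6 measured protein-coding genes on each side (blue), in chromosomal order and not to scale. Triangles are lower bounds, crosses are genes below both floors, and dotted lines mark 2-fold; the metallothioneins above a floor lie between 2.08 and 3.40, and BBS2 and NUP93 beside them at 0.12 and -0.53.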

How the data were processed

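Total RNA of 2 samples was measured on 3' arrays, 1 per sample. Per the submitters' processing notes, the deposited intensity values were made by the authors with MAS5, which subtracts mismatch signal; its version is not given in the sources used here. A trimmed mean, with 2% dropped at either end, came to 500.07 for each array. This shows scaling to a common target, which assumes equal mean signal.

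Names came from the platform annotation, with 41097 of 54675 carrying 1 symbol, and symbols were updated through the gene ID with the table of GRCh38.p14. Signals under the floor were raised to it before log2; a fold with 1 value under its floor is a bound, and 416 genes whose bound was under 1 had no fold. Of several probe sets of a gene, the one brightest on average (mean log2 signal) stood for it. The threshold was 2-fold. The members and lists were chosen with earlier results of these data known. Named by rule were all members, other metallothionein loci, SLC30A1, NR3C1 and up to 4 genes per list with the largest difference. Named outside that rule were the list genes SLC30A6, GCLC, GCLM, ATOX1, SLC31A1 and FTL. So were MT1HL1, genes beside the cluster and the genes used to check the labels. The calculation was tested on simulated data. Alternatives were 4 scalings, 4 treatments of low values, a 1.5-fold threshold, the median over all probe sets of a gene and leaving out IDs ending in _x_at or _s_at. Quantile and loess scaling (span 0.3) used limma 3.58.1 in R 4.3.3, the rest Python 3.11.15 with numpy 2.4.6 and pandas 2.3.3. Promoter sequences were RefSeq's, which were at hand for 4 of the 8 members.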

Additional observations from a re-analysis of the deposited data

How the results depend on the processing

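The direction of the metallothioneins held under the alternatives run: all 64 values of the 7 genes were at least 2-fold higher. They ran from 1.25 (MT1G, the median of its probe sets) to 3.93 (MT1M without a floor) on the log2 scale. The 1.25 takes in an MT1G probe set below both floors, which gives only the log2 ratio of the floors. The alternatives use the same arrays and are no separate support. A pair of summaries moved. With a floor 2 times as high the median log2 difference was 2.40, since the bound of MT1M is then lower. Without _x_at and _s_at probe sets 1 member probe set, that of MT1M, was at least 2-fold higher, since only 3 remained. MTF1 stayed under 2-fold, from 0.09 to 0.49. Over 37 single genes, 338 of 357 values moved by less than the SD of 0.50, and 19 by more. The sign changed for 3 genes, each under 2-fold: SLC30A1 (-0.30 on the hybridisation controls), SLC30A4 (0.35) and SLC30A9 (0.20), the last 2 as the median over probe sets. The 0.35 of SLC30A4 is the log2 ratio of the floors, since its other probe sets lay below both, and is no measured level. Of genes past 2-fold, 6 fell under it in an alternative, in 9 values: TXNRD1, SLC39A5, SLC40A1 as given, DUSP1 (0.18) and PIAS4 (-0.75) as the median over probe sets, PIAS4 (-0.995) with a pseudocount of 50, and STEAP2 (0.999) on the hybridisation controls. Scaled on the hybridisation controls, 1567 genes passed 2-fold on the higher side and 3200 on the lower, against 2218 and 2132. The signal over background limits MT1M, MT3 and MT4, and 1 array per group limits all values. No paired analysis was possible because each group holds 1 sample and the result comes from no test.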

Other observations

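Genes of copper and iron handling were looked at beside the metallothioneins, which also bind copper. Of 15 copper genes above a floor, 4 passed 2-fold on the higher side and 1 on the lower, and the median log2 difference was -0.09. Over all 13865 genes above a floor, 16.0% were at least 2-fold higher and 15.4% lower, and these list counts are small. LOX, a copper-dependent enzyme that crosslinks collagen, read 2680 on the control-labelled array and 19502 on the FOXM1-labelled array, 7.28-fold higher. The metalloreductase genes STEAP3 and STEAP2 were 3.59-fold and 2.47-fold higher, and ATOX1, a cytosolic copper chaperone, 2.22-fold. ATP7B, a copper-exporting ATPase, read 772 and 56.6, at least 9.94-fold lower. The copper importer gene SLC31A1 differed by 0.12. With the hybridisation controls set equal, 2 copper genes were higher and 2 lower, beside 1567 and 3200 of all 13810 genes.

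Of 9 iron genes above a floor, 2 passed 2-fold on the higher side and 1 on the lower, beside 16.0% and 15.4% of all 13865 genes. The median of the iron genes was 0.81 on the log2 scale. HMOX1 was given above. HFE, a regulator of iron uptake, read 80.5 and 709, and its 4 probe sets above both floors ran from 1.09 to 3.14 on the log2 scale. SLC40A1, the iron exporter ferroportin, read 232 and 43.1, at least 2.98-fold lower. With a floor 2 times as high it was at -0.58 on the log2 scale and as the median over its probe sets at -0.68, both under 2-fold. The ferritin light chain gene FTL gave 0.997 and the iron importer gene SLC11A2 0.999, just under 2-fold, in their brightest probe sets. The other FTL probe set gave 1.47, and the 4 of SLC11A2 above both floors ran from -0.15 to 1.21. With median centring the brightest probe sets of FTL and SLC11A2 passed 2-fold, and 4 iron genes were then on the higher side.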
